A study of Peromyscus polionotus with 11 samples.

Results

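The insulin-like growth factor (IGF) family was followed across the arrays through 8 genes: the growth factor Igf1, its receptor Igf1r, and the binding protein genes Igfbp2, Igfbp3, Igfbp4, Igfbp5, Igfbp6 and Igfbp7. Every probe set whose only gene symbol in the platform annotation was one of these names was taken, and all 8 genes were found. They gave 19 of the 22626 probe sets tested, or 8 of 12393 named genes. Igfbp4 had 6 probe sets, Igf1 and Igfbp7 had 3 each, Igf1r and Igfbp5 had 2 each, and the other members had 1 each. The family was chosen by its symbols but with earlier results of these arrays known, namely the higher Igfbp4 signal of short-day bed nucleus. The Igfbp4 values are therefore given as a description, and their p-values support nothing further.

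IGF1 acts on neurons and glia through a receptor tyrosine kinase, which signals through insulin receptor substrates to the PI3K and MAPK pathways. The binding proteins hold IGFs in the extracellular fluid, prolong their life there and mostly keep them from the receptor, until proteases such as PAPP-A cut the binding protein and set the ligand free. In the brain they are made by neurons, astrocytes, vessels, meninges and choroid plexus in different mixtures.

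Total RNA came from micropunches of the forebrain of the oldfield mouse (Peromyscus polionotus), kept in long or short days, and was hybridised to arrays designed for the house mouse. The medial preoptic area, a hypothalamic region for sexual and parental behaviour, was represented by 3 samples from long-day and 3 from short-day animals. The bed nucleus of the stria terminalis, which links the amygdala with the hypothalamus, was represented by 3 samples from long-day and 2 from short-day animals. The study asked whether day length alters gene expression in these nuclei. The labels give no genotype, drug, age or sex and no hours of light, and do not say whether a sample held 1 animal or a pool. The p-values rest on the spread between these samples, pooled over the groups and moderated towards that of all probe sets.

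Intensities are in array units after the authors' normalization, and the median of every array was 19. Of the 19 family probe sets, 11 had a mean above this median and 8 a mean at or below it, where little signal stands over background. One unit is a step of 0.15 on the log2 scale at an intensity of 9 and of 0.03 at 50. Levels were not compared between genes or probe sets, since the probes were made for another species, and the highest mean intensity served only to choose 1 probe set for each gene of the pathway and marker lists. The short-day preoptic array 6 stood apart on the first principal component, at -31.2 against -6.63 to 25.4 for the others. The long-day bed nucleus arrays were the highest on it, at 25.4, 19.3 and 7.57. Short-day bed nucleus lay at -2.38 and -6.63, and the highest preoptic array at 1.98. Preoptic and hypothalamic neuron markers, summed over 16 genes, lay at 3478 to 4603 on the preoptic arrays and at 2450 to 3152 on the bed nucleus arrays. Striatal neuron markers, summed over 9 genes, lay at 1663 to 2976 and at 3077 to 3911. Most of the first sum was Ndn (2542 to 3604 and 1695 to 2255), and most of the second Foxp1 (1428 to 2615 and 2697 to 3422). By gene, 14 of 16 preoptic and hypothalamic markers were lower in the bed nucleus, and 8 of 9 striatal markers were higher. Otp, of the first list, went the other way, at 18 to 27 and 25 to 40. No list of markers defining the bed nucleus itself was used, so that label was checked only by this contrast.

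The family's clearest pattern was a low Igfbp4 signal in long-day bed nucleus, the contrast already known when the family was chosen. On 3 of the 6 Igfbp4 probe sets the signal there was under that of the short-day bed nucleus arrays without overlap, and the short-day bed nucleus means lay above the preoptic means. The other 3 Igfbp4 probe sets did not show this. Over all probe sets, 10.2% had separate bed nucleus groups with short days higher. Long-day bed nucleus arrays were also the highest on the first principal component, whose part in the Igfbp4 values was not tested. No family probe set passed an adjusted p of 0.05 (limma, Benjamini-Hochberg over all probe sets) in any of the 5 comparisons. These were short minus long days in each nucleus, their mean, their difference, and bed nucleus minus preoptic area.

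The ligand gene Igf1 was steady where it was measured above the median. Probe set 1452014_a_at read 35, 36 and 36 in long-day and 36, 38 and 35 in short-day preoptic area. The bed nucleus arrays gave 37, 38 and 35 with long days and 38 and 35 with short days. All 11 arrays thus lay between 35 and 38, and the day-length differences were 0.03 ± 0.12 (log2, SE) in the preoptic area and -0.01 ± 0.13 in the bed nucleus. The 95% intervals ran from -0.22 to 0.27 and from -0.28 to 0.27.

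The other Igf1 probe sets were dim. Probe set 1437401_at read 9, 9 and 10 in long-day and 11 and 12 in short-day bed nucleus, a difference of 0.30 ± 0.14 (adjusted p = 0.373, limma). Probe set 1419519_at read 8, 9 and 10 against 11 and 11 (0.30 ± 0.14, adjusted p = 0.396, limma). In the bed nucleus 10.2% of all probe sets had separate groups with short days higher. Both pairs of Igf1 groups were separate, but by steps of 1 or 2 units of a rounded value below the array median. With 16 units added to every intensity before the logarithm, which damps dim values, these differences were 0.12 and 0.11. In the preoptic area the same probe sets read 9 to 12 and 8 to 9, with overlapping groups.

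Igf1r, which encodes the IGF1 receptor, was measured by 2 probe sets that differed in pattern. Per the platform annotation both derive from the same source sequence. Probe set 1452108_at read 55, 82 and 74 in long-day bed nucleus and 62 and 42 in short-day bed nucleus. The groups overlapped, and the difference of -0.44 ± 0.21 did not pass (adjusted p = 0.376, limma). Without the short-day bed nucleus array 5 it was -0.16. In the preoptic area this Igf1r probe set read 63, 50 and 49 in long days and 52, 62 and 40 in short days (-0.09 ± 0.18).

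The second Igf1r probe set, 1426565_at, read 42, 36 and 41 in long-day and 41, 49 and 56 in short-day preoptic area. The groups touched at 41, and the difference was 0.29 ± 0.13 (adjusted p = 1, limma). Without the short-day preoptic array 6 it was 0.18. All 5 bed nucleus arrays of this probe set lay between 42 and 45 (-0.03 ± 0.15). Array 6 had the lowest value of 1452108_at (40) and the highest of 1426565_at (56) among the 11 arrays.

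Igfbp4 encodes a binding protein that chiefly inhibits IGF action and is cut by PAPP-A. Its probe set 1437405_a_at read 47, 47 and 57 in long-day and 61, 54 and 46 in short-day preoptic area. The bed nucleus values were 26, 31 and 36 in long days and 51 and 61 in short days. The 3 long-day bed nucleus arrays lay under all other arrays, and the other 3 groups overlapped. In order of their means the groups stood at 31.0 ± 5.0 (SD, n = 3) in long-day bed nucleus, 50.3 ± 5.77 (n = 3) in long-day preoptic area, 53.7 ± 7.51 (n = 3) in short-day preoptic area and 56.0 ± 7.07 (n = 2) in short-day bed nucleus. Short-day bed nucleus was 1.82-fold over long-day bed nucleus, a log2 difference of 0.86 ± 0.17 with a 95% interval of 0.51 to 1.21.

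Probe set 1437406_x_at, taken from the same source sequence as 1437405_a_at per the platform annotation, read 15, 18 and 13 in long-day and 22 and 24 in short-day bed nucleus. On the preoptic arrays it read 23, 22 and 19 in long days and 20, 19 and 19 in short days. Again the long-day bed nucleus arrays lay under the other 8 arrays. The bed nucleus difference was 0.60 ± 0.15, with an interval of 0.28 to 0.91, and 0.32 with 16 added before the logarithm. Its name ending marks possible cross-hybridisation to other transcripts, and its level lay close to the array median.

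Probe set 1423756_s_at read 10, 12 and 12 in long-day and 16 and 21 in short-day bed nucleus, against 15, 13 and 19 and 15, 12 and 18 in the preoptic area. The bed nucleus groups did not overlap (0.70 ± 0.19), while the lowest preoptic array tied with the bed nucleus long-day arrays at 12. Bed nucleus groups were separate in this direction for 10.2% of all probe sets. With 16 added before the logarithm, the bed nucleus difference of this probe set was 0.33. Its mean of 14.8 lay under the array median, and its name ending marks possible binding of transcripts of more than this gene.

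The remaining Igfbp4 probe sets did not separate the day lengths. Probe set 1423757_x_at, from the same source sequence as 1423756_s_at, read 33, 26 and 29 in long-day and 35 and 24 in short-day bed nucleus (-0.01 ± 0.17). All its arrays lay above the array median, and its name ending also marks possible cross-hybridisation to other transcripts. Probe sets 1421992_a_at and 1421991_a_at, which share another source sequence, read 10 to 16 on all arrays, under the array median. Their bed nucleus differences were -0.16 ± 0.16 and -0.15 ± 0.18. The 6 probe sets thus rest on 3 source sequences, and the 3 with higher short-day values in the bed nucleus come from 2 of them. They are not independent measurements of the gene.

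**Figure D1:**
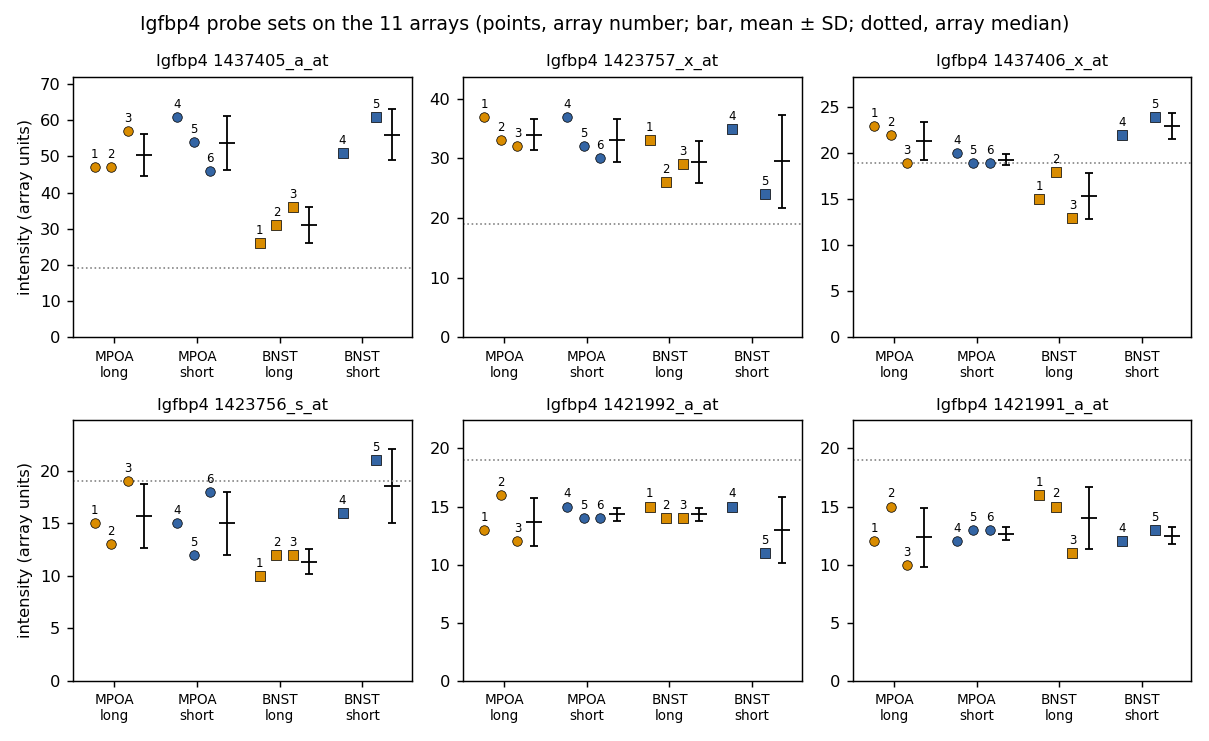
Intensity of the 6 Igfbp4 probe sets (vertical axis, array units, from 0) in long- and short-day medial preoptic area (MPOA, circles) and bed nucleus (BNST, squares). Points are arrays with their sample numbers, bars give the group mean ± SD, and the dotted line is the array median of 19. On 1437405_a_at the long-day bed nucleus arrays (26 to 36) lie under all others (46 to 61).

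With limma over all probe sets the bed nucleus difference of 1437405_a_at had an adjusted p of 0.0672, that of 1437406_x_at 0.114 and that of 1423756_s_at 0.13. Leaving out the short-day preoptic array 6, which does not enter this difference but does enter the shared spread, gave 1437405_a_at an adjusted p of 0.0346, and the difference stayed at 0.86. In the preoptic area the day-length differences of the 6 Igfbp4 probe sets ran from -0.14 to 0.09, and all those groups overlapped. Less the preoptic effect, the bed nucleus effect of day length was 0.77 ± 0.22 for 1437405_a_at, 0.73 ± 0.20 for 1437406_x_at and 0.76 ± 0.25 for 1423756_s_at. None of these passed (adjusted p = 0.45, 0.45 and 0.471, limma). The mean day-length difference over both nuclei was 0.47 ± 0.11 for 1437405_a_at (adjusted p = 0.369, limma).

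Between the nuclei, averaged over day lengths, 1437405_a_at was at -0.32 ± 0.11 in the bed nucleus relative to the preoptic area (adjusted p = 0.218, limma). After its values were seen, this was divided by day length: the difference was -0.71 ± 0.15 in long days (adjusted p = 0.072, limma) and 0.07 ± 0.17 in short days. Among all tested probe sets, 430 had all long-day bed nucleus arrays above all other arrays. The reverse, with these arrays under all others, held for 246 (1.09%), and 2 of the 6 Igfbp4 probe sets were among them. Since Igfbp4 was picked for this pattern, nothing is read from that share.

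Markers of other cell types were measured beside Igfbp4 in the bed nucleus, where fewer cells of a type and less RNA per cell cannot be told apart. Ependymal and choroid plexus markers were below 0 in short minus long days in 7 of 8 measured genes (median log2 difference -0.23, against -0.01 over all probe sets). Their summed intensity was 195 to 223 in long and 168 to 170 in short days. Leptomeningeal markers were below 0 in 7 of 11 genes, with sums of 647 to 1059 and 343 to 617. That gap lay in the prostaglandin D synthase gene Ptgds, at 889, 574 and 483 against 451 and 187 (-1.11 ± 0.33, adjusted p = 0.17, limma). The other 10 genes, summed apart after these values were seen, gave 170, 167 and 164 against 166 and 156. Pericyte and smooth muscle markers were below 0 in 6 of 8, with sums of 270 to 306 and 234 to 265.

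Neuron markers were below 0 in 11 of 14 genes (median -0.18), with sums of 3408 to 3977 in long and 3307 to 3542 in short days. Preoptic and hypothalamic neuron markers were below 0 in 12 of 16 (sums 2776 to 3152 and 2450 to 2852) and astrocyte markers in 8 of 12 (4861 to 5441 and 4516 to 5050). Ndn gave most of the former sum (1929 to 2255 and 1695 to 2127) and Gja1 most of the latter (4110 to 4533 and 3708 to 4200). Oligodendrocyte markers lay the other way, above 0 in 7 of 10 genes (median 0.11), with sums of 624 to 876 and 625 to 1065. Microglial markers were below 0 in 6 of 10 (sums 195 to 207 and 193 to 223), endothelial markers in 6 of 11 (217 to 243 and 214 to 230) and striatal neuron markers in 4 of 9 (3077 to 3761 and 3707 to 3911). No gene of these 10 lists passed in this comparison, and none read 0 on any array. Of the ependymal, leptomeningeal and pericyte genes, 4 of 8, 7 of 11 and 1 of 8 had means at or under the array median. In the preoptic area, striatal neuron markers were below 0 in short minus long days in 9 of 9 genes (median -0.32). Their sums were 2133 to 2976 in long and 1663 to 2231 in short days. Preoptic and hypothalamic neuron markers were above 0 there in 14 of 16 (median 0.14), with sums of 3478 to 4414 and 3772 to 4603. Medians of the other lists ran from -0.05 to 0.06, and no gene passed. The part of these lists in the Igfbp4 values and in the preoptic day-length differences was not tested.

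Igfbp5, which encodes a binding protein of neurons and extracellular matrix, had 2 probe sets. Probe set 1422313_a_at read 20, 23 and 31 in long-day and 28 and 40 in short-day bed nucleus, with overlapping groups (0.46 ± 0.22, adjusted p = 0.388, limma). In the preoptic area it read 26, 21 and 31 against 25, 25 and 39 (0.18 ± 0.20). Its high values were thus those of array 6 in the preoptic area and of array 5 in the bed nucleus. Without array 6 the preoptic difference was -0.04, and without array 5 the bed nucleus difference was 0.21.

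Igfbp5 probe set 1452114_s_at differed little with day length, and most of its preoptic values lay above its bed nucleus values. It read 62, 61 and 51 in long-day and 59, 58 and 52 in short-day preoptic area, and 44, 52 and 44 and 50 and 48 in the bed nucleus. Only the values of 51 and 52 in the preoptic area and 52 in the bed nucleus overlapped. The bed nucleus minus preoptic difference was -0.26 ± 0.10 and did not pass (adjusted p = 0.264, limma). The probe set ending marks possible binding of transcripts of more than this gene.

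Igfbp2, whose product is made by astrocytes and choroid plexus, read 15, 18 and 17 in long-day and 19, 19 and 19 in short-day preoptic area (0.19 ± 0.13, adjusted p = 1, limma). These groups did not overlap, as for 5.19% of all probe sets, but by 1 unit at the array median. Its bed nucleus values were 19, 22 and 17 with long days and 21 and 20 with short days (0.09 ± 0.14). Igfbp3, the main IGF carrier of serum, read 13 to 14 on all preoptic arrays, 16, 16 and 14 in long-day bed nucleus and 13 and 13 in short-day bed nucleus (-0.24 ± 0.13, adjusted p = 0.476, limma). Both genes lay near or under the array median.

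Igfbp6 encodes a binding protein that prefers IGF2. It read 32, 28 and 28 in long-day and 28, 27 and 16 in short-day preoptic area, so the low short-day mean came from array 6. The difference of -0.35 ± 0.18 (adjusted p = 1, limma) was -0.09 without that array. In the bed nucleus Igfbp6 read 25, 25 and 30 against 30 and 23 (-0.02 ± 0.20).

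Igfbp7 encodes a low-affinity binding protein of vessel walls, and its probe set 1437804_at varied little. It read 85, 84 and 89 in long-day and 87, 72 and 90 in short-day preoptic area, and 88, 83 and 83 and 79 and 85 in the bed nucleus. The day-length differences were -0.06 ± 0.12 in the preoptic area and -0.05 ± 0.14 in the bed nucleus, with intervals of -0.32 to 0.20 and -0.34 to 0.24. Probe set 1423584_at read 19 to 32 and probe set 1423585_at 7 to 12, the lowest of these (7) on array 6. Endothelial markers, summed over 11 genes, lay at 207 to 228 on the preoptic and 214 to 243 on the bed nucleus arrays.

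**Figure D2:**
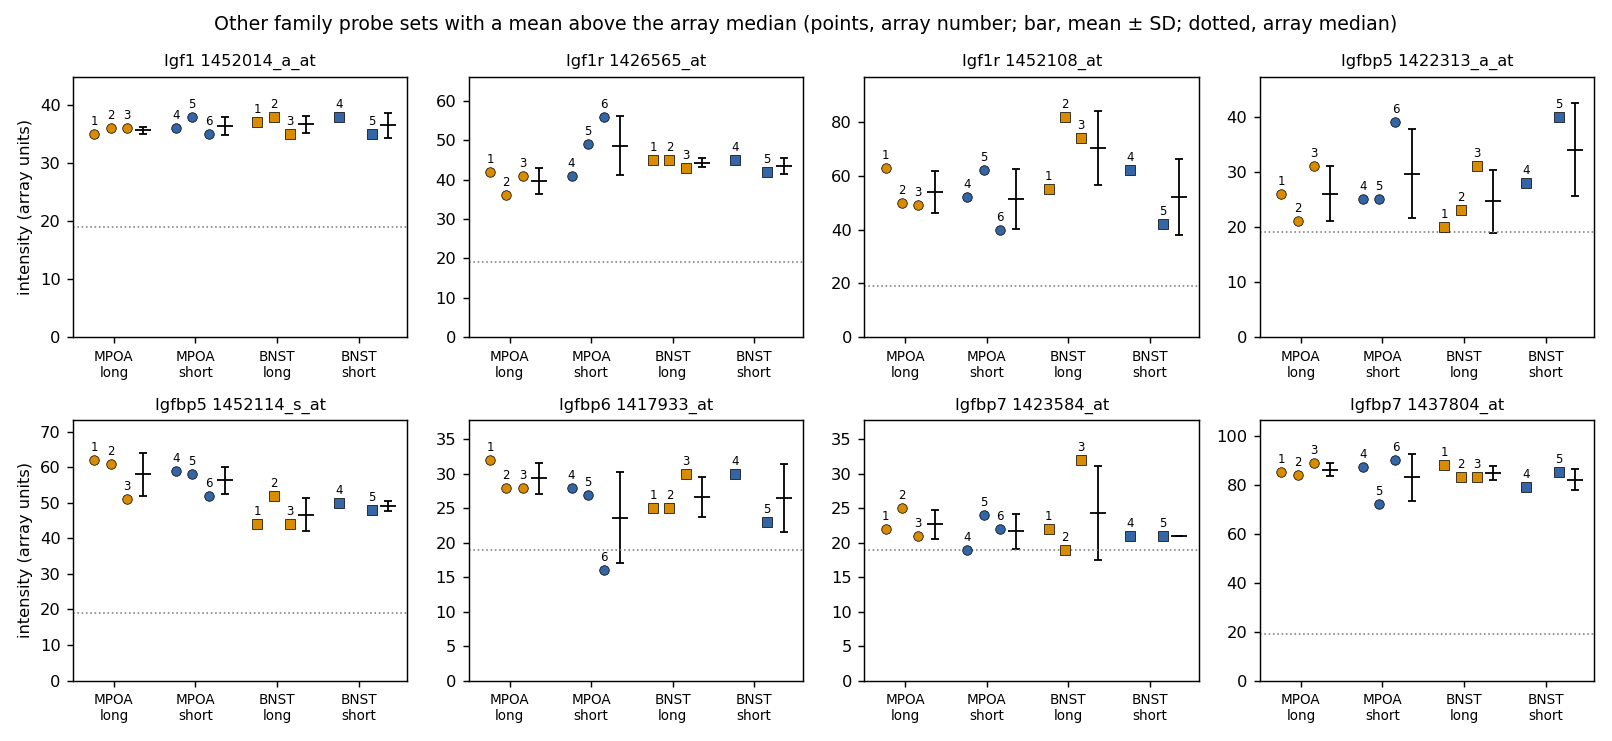
Intensity of the other family probe sets with a mean above the array median (vertical axis, array units, from 0) in the same 4 groups. Points are arrays with their sample numbers, bars the group mean ± SD, and the dotted line the array median of 19. Igf1 1452014_a_at stays at 35 to 38, whereas Igfbp6 reads 16 on the short-day preoptic array 6.

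Over the family, the preoptic day-length comparison gave 0 of 19 probe sets past the threshold with limma and 1 with an unadjusted p under 0.05, against 0% and 3.50% of all probe sets. The groups did not overlap for 1 of 19 (Igfbp2), against 5.19% of all. In the bed nucleus 0 of 19 passed and 6 had an unadjusted p under 0.05, against 0.0442% and 12.7% of all. Groups there did not overlap for 6 of 19, against 23.7% of all probe sets. Short-day values were higher for 5 of these (Igf1 and Igfbp4, 10.2% of all) and lower for 1 (Igfbp3, 13.5% of all). Nothing is read from the bed nucleus counts, since the family was proposed from that contrast. With 16 added before the logarithm, 13 of the 19 bed nucleus differences and 13 of the 19 preoptic ones were smaller by over 1.5 times, and none of these changed sign. The offset damps dim values by its form, so these counts follow largely from the intensity levels.

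The medians of the family stayed close to those of all probe sets. They were -0.04 against 0.00 in the preoptic area and -0.01 against -0.01 in the bed nucleus. For the mean over both nuclei, 0 of 19 passed with limma and 5 had an unadjusted p under 0.05 (0.0133% and 9.02% of all). For the difference of the effects between the nuclei the counts were 0 and 3 (0% and 8.34% of all). For bed nucleus minus preoptic area they were 0 and 3 (1.03% and 11.9% of all), the 3 being Igf1 1419519_at (0.23 ± 0.10), Igfbp4 1437405_a_at and Igfbp5 1452114_s_at.

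**Figure D3:**
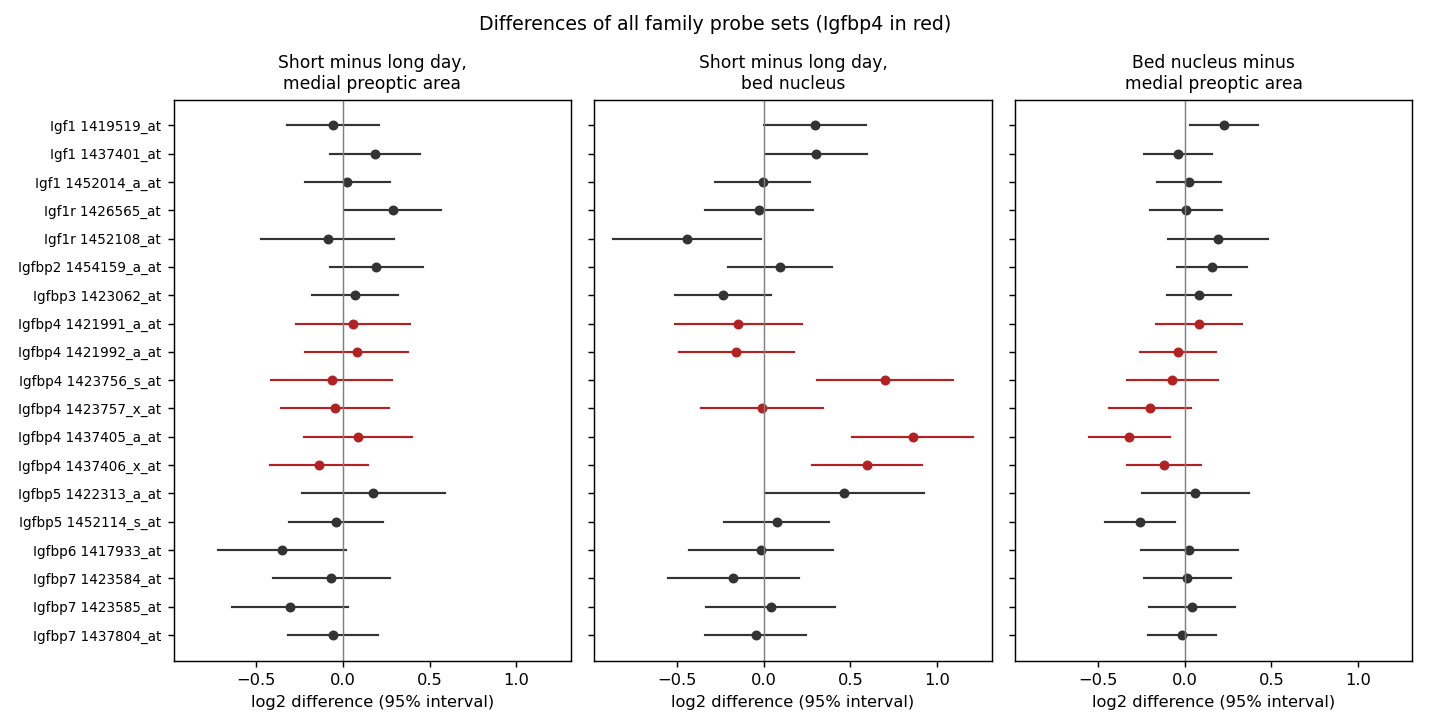
Log2 differences (horizontal axis) of the 19 family probe sets with 95% intervals of the limma fit, for short minus long days in each nucleus and for bed nucleus minus medial preoptic area. Igfbp4 is in red, and 3 of its probe sets stand between 0.60 and 0.86 in the bed nucleus panel, while its preoptic values run from -0.14 to 0.09.

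Of 48 other genes of IGF and insulin signalling, 39 were measured, each by 1 probe set. With limma 0 of 39 passed in the preoptic day-length comparison, in that of the bed nucleus, in their mean and in their difference. Over all probe sets 0%, 0.0442%, 0.0133% and 0% passed. An unadjusted p under 0.05 was found for 2, 3, 4 and 4 of 39, against 3.50%, 12.7%, 9.02% and 8.34% of all. In the bed nucleus minus preoptic comparison 1 of 39 passed, with a lower level in the bed nucleus, against 1.03% of all. There 5 had an unadjusted p under 0.05, against 11.9% of all. Medians of the 39 genes in these comparisons were -0.02, -0.03, -0.02, 0.03 and 0.05, against medians over all probe sets of 0.00, -0.01, -0.01, -0.02 and 0.00.

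The gene that passed was Grb10, an imprinted adaptor that binds the insulin and IGF1 receptors and damps their signal. It read 665, 689 and 678 in long-day and 756, 731 and 736 in short-day preoptic area, and 475, 458 and 433 and 412 and 376 in the bed nucleus. Every preoptic array lay above every bed nucleus array. The difference was -0.74 ± 0.09 (adjusted p = 1.92e-04, limma), and by day length, divided after its values were seen, -0.57 ± 0.12 in long days (adjusted p = 0.0605, limma) and -0.91 ± 0.13 in short days (adjusted p = 0.00346, limma). In those comparisons 0.128% and 0.354% of all probe sets passed. The further Grb10 probe sets, 1425457_a_at and 1430164_a_at, read 10 to 26 on all arrays, with differences of -0.01 and 0.22. Of the 16 preoptic and hypothalamic neuron markers, 5 passed lower and 1 higher in the bed nucleus, and of 9 striatal markers 5 passed higher. The part of this difference in cell make-up in the Grb10 value was not tested.

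No ligand gene or extracellular regulator passed. Igf2, the second ligand, named for its role and not for its values, read 35 to 48 over all arrays. Pappa, which encodes the protease that cuts IGFBP4, read 19, 17 and 14 in long-day and 12 and 12 in short-day bed nucleus (-0.46 ± 0.16, adjusted p = 0.23, limma), at or under the array median. Its groups did not overlap, which held for 23.7% of all probe sets in this comparison (13.5% with lower short-day values). Stc2, a stanniocalcin that inhibits this protease, read 19, 24 and 25 against 24 and 34, with overlapping groups.

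Among the receptors and adaptors, Igf2r, the clearance receptor for IGF2, read 19, 20 and 20 in long-day and 22, 25 and 30 in short-day preoptic area (0.37 ± 0.13, adjusted p = 1, limma). Grb14, a receptor-bound inhibitor related to Grb10, read 22, 23 and 31 against 17, 18 and 15 there (-0.59 ± 0.15, adjusted p = 1, limma). Both pairs of groups were separate, as for 5.19% of all probe sets, and neither difference passed. The means of Igf2r and Grb14 over all arrays, 21.9 and 21.1, lay close to the array median of 19. Grb14 values from the bed nucleus, at 21, 25 and 23 against 16 and 21, touched.

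For day length in the bed nucleus the 39 genes were divided, with 19 above and 20 below 0 and none past the threshold. Sos1 and Irs1 are described for their small unadjusted p and do not stand for the genes downstream of the receptor. Sos1, the exchange factor that activates Ras, read 47, 45 and 45 against 37 and 29 (-0.48 ± 0.14, adjusted p = 0.162, limma). Irs1, a docking protein of the insulin and IGF1 receptors, read 70, 99 and 84 against 70 and 58 (-0.39 ± 0.16, adjusted p = 0.31, limma). Irs1 was also at -0.36 ± 0.11 in the bed nucleus relative to the preoptic area (adjusted p = 0.131, limma), where it read 85 to 103. In that comparison 23 of the 39 genes were above 0 and 16 below. Pik3r1 was at 0.26 ± 0.10 (adjusted p = 0.272, limma) and Htra1 at -0.25 ± 0.10 (adjusted p = 0.304, limma).

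**Figure D4:**
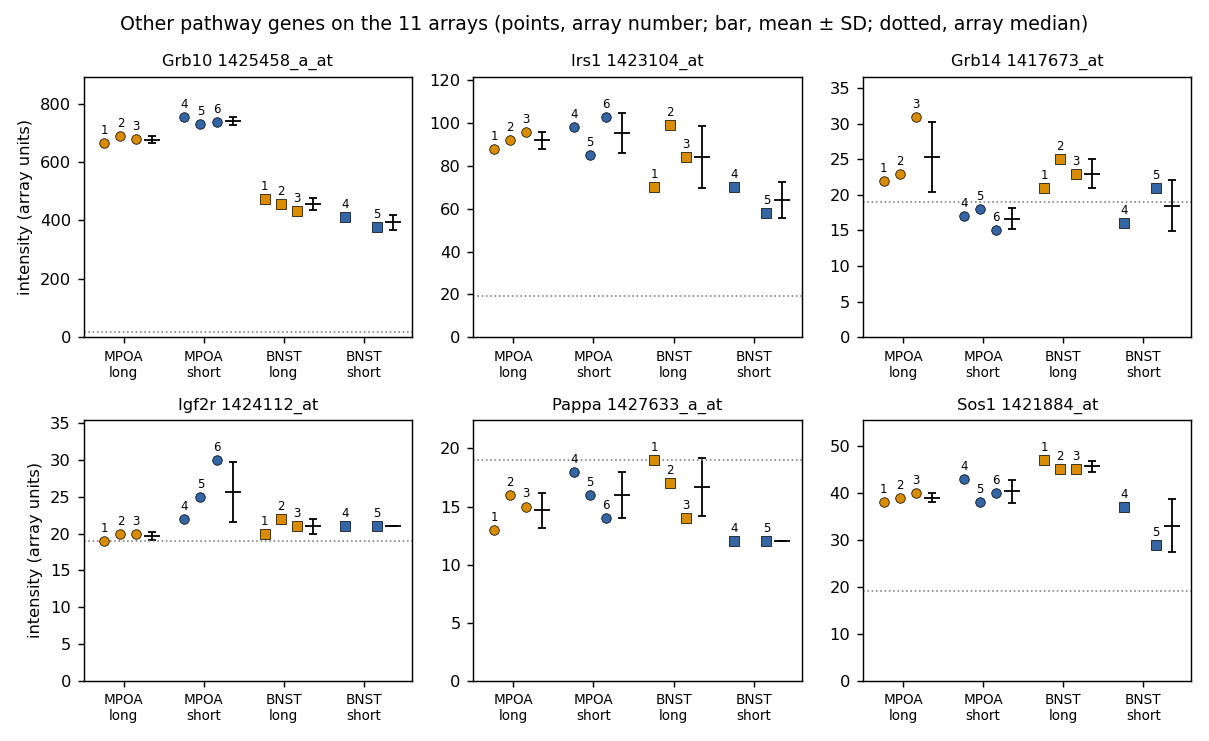
Intensity of 6 other pathway genes (vertical axis, array units, from 0) in medial preoptic area (MPOA) and bed nucleus (BNST) under long and short days. Points are arrays with their sample numbers, bars the group mean ± SD, and the dotted line the array median of 19. Grb10 lies at 665 to 756 on the preoptic and at 376 to 475 on the bed nucleus arrays.

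The 3 most variable family probe sets with means above the array median were compared with 10362 such single-gene probe sets of other genes. The most alike were sought by the root mean square (RMS) difference of centred log2 values over the 11 arrays. For Igfbp4 1437405_a_at these were Ankrd12 (0.17), Mrps14 (0.17) and Bach2 (0.20), against a median of 0.44 over all candidates. Mrps14, a mitochondrial ribosomal protein gene, read 21, 18 and 24 in long-day and 30 and 32 in short-day bed nucleus, and 26 to 33 in the preoptic area. For Igfbp5 1422313_a_at they were C1d (0.13), Slc51a (0.13) and Krtap5-1 (0.14), each with its highest bed nucleus value on array 5 and its highest preoptic value on array 6. For Igf1r 1452108_at they were Ythdf3 (0.13), Atp2c1 (0.15) and Adgra3 (0.16), each with the lowest value of its nucleus on those same arrays. These likenesses share the 11 arrays and describe them alone.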

How the data were processed

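The authors deposited linear probe set intensities, rounded to whole numbers and made with RMA 3.4 per the submitters' processing notes. Further steps were not given in the sources used here. Of 22690 probe sets, 64 controls were set aside. Gene names came from the platform annotation: 20380 probe sets carry 1 symbol, 691 several and 1555 none, and only the first were named. The log2 intensities of all 22626 probe sets on the 11 arrays were fitted with 4 group means (lmFit and eBayes, limma 3.58.1, R 4.3.3; 7 residual and 12.9 prior degrees of freedom). Tests were two-sided, with Benjamini-Hochberg adjustment over all probe sets and a threshold of 0.05. The number of arrays limits the precision, and no detection call was used. The procedure was run on simulated data with independent noise, with a check only that the median estimate lay close to the true difference. The share of true differences it found is not given here. Named were all family probe sets, pathway genes that passed, and a selection of the 4 with the smallest p in each comparison. Of the latter, Grb2, Gab1, Ptpn11 and Insr are not described. Members and lists were chosen with earlier results of these data known. Equal sample numbers in the nuclei were not taken as pairs, and the labels do not say whether they mark the same animal. Deviations of same-numbered arrays from their group means correlated at -0.03 to 0.07. With 2 or 3 arrays in a group these correlations cannot decide whether the numbers mark pairs. Alternatives were another normalization, centring, offset, filter, prior, weights, probe set choice, threshold, subsets of arrays and a block on the sample number.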

Additional observations from a re-analysis of the deposited data

How the results depend on the processing

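In the alternative settings the count of family probe sets past the threshold stayed at 0 in every comparison but short minus long days in the bed nucleus. There it was 1 at a threshold of 0.10, and 0 to 1 when each array was left out in turn, the 1 being Igfbp4 1437405_a_at without the short-day preoptic array 6. Over 21 settings that Igfbp4 difference ran from 0.62 to 0.99, with adjusted p-values of 0.0346 to 0.373 (limma). With sample number as a random replicate block (consensus correlation 0.01) the count was 0 in all 5 comparisons. As a fixed block it was 0 in the nucleus comparison and in the difference of the effects, the only ones it allows. No passed value changed sign. Among family differences that did not pass, 17 of 380 values in the preoptic area, 18 of 380 in the bed nucleus and 40 of 418 between the nuclei changed sign in some setting. Grb10 passed in every setting that kept both day lengths (adjusted p up to 0.00311, limma). Of the settings chosen after the data were seen, it was lost in long days alone (-0.57, adjusted p = 0.0605, limma). Rounding to whole numbers limits what can be seen in the 8 dim family probe sets.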
